A study of Mus musculus with 10 samples.

Results

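The 10 genes described here encode fatty acid desaturases and elongases of mouse liver: Scd1, Scd2, Fads1, Fads2, Fads3, Elovl1, Elovl2, Elovl3, Elovl5 and Elovl6. They were taken by gene symbol from 23420 genes counted by RNA-seq in 10 livers, and all 10 were among the 12796 genes with enough reads to be tested. The livers came from male C57BL/6 mice aged 4 months, of which 5 had been kept on standard chow and 5 had gone without food, but not without water, for 48 hours. The series asks how the metabolic state regulates genes through histone β-hydroxybutyrylation, a lysine modification derived from a ketone body. The libraries held 22978413 to 29941358 reads (fed) and 18197194 to 28065220 reads (starved) assigned to genes. Within the starved group, libraries 2 and 4 stood apart: the chi-square per degree of freedom of their gene counts against any other starved library was 129 to 291, beside 12.2 to 52.7 among the other 3 and 23.2 to 91.1 between fed libraries, so results are also given without this pair where that moves them.

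Palmitate, the saturated product of fatty acid synthase, is remodelled on the endoplasmic reticulum. Elongases of the ELOVL family start a cycle that lengthens an acyl-CoA chain, stearoyl-CoA desaturases (SCD) place the first double bond in saturated chains, and FADS desaturases add further double bonds to the dietary linoleic and α-linolenic acids on the way to arachidonic acid, eicosapentaenoic acid and docosahexaenoic acid. In liver these enzymes supply the chains for triglycerides, phospholipids and cholesterol esters. SREBP transcription factors, of which the liver form of Srebf1 responds to insulin, are known activators of many of these genes.

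The SCD and FADS genes sit in a pair of clusters on chromosome 19 (GRCm38, the build that mm10 names). Scd2 (44293674 to 44306864) and Scd1 (44394455 to 44407879) lie 87.6 kb apart, and Fads3 (10041569 to 10060110), Fads2 (10062765 to 10101746) and Fads1 (10182888 to 10196877) lie side by side with gaps of 2.65 and 81.1 kb. Elovl3 is on the same chromosome (46131897 to 46135694), while Elovl6 is on chromosome 3 (129532355 to 129638495), Elovl1 on chromosome 4 (118428093 to 118432953), Elovl5 on chromosome 9 (77917364 to 77984519) and Elovl2 on chromosome 13 (41182381 to 41220405).

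Scd1 and Scd2 are close copies, which matters for telling their reads apart. Their coding sequences (GENCODE M21 transcripts) were identical at 89.6% of aligned positions and shared a run of 147 bases, printed here in capitals with 15 bases of lower case on each side, from base 508 to 684 of the Scd1 and base 517 to 693 of the Scd2 coding sequence.
Scd1: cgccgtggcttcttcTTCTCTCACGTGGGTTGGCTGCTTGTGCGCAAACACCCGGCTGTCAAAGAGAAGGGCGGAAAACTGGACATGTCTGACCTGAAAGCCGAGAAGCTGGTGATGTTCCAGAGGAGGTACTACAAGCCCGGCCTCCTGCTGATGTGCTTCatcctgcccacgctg
Scd2: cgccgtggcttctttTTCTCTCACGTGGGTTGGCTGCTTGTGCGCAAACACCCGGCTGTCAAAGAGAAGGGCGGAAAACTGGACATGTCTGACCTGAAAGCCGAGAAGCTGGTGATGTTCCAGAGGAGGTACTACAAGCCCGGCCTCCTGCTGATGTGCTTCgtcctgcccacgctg
Of all windows of 50 bases in their transcripts, 4.56% for Scd1 and 3.97% for Scd2 also occurred in a transcript of another Scd gene, so most of either transcript is distinct at this length. For Elovl6 this share was 3.98% (with transcripts outside the family), for Fads2, Fads3 and Elovl1 it was between 0.127% and 0.152%, and Fads1, Elovl2, Elovl3 and Elovl5 had no shared window. The FADS coding sequences were 62.9% to 69.7% identical. Among the ELOVL coding sequences, Elovl2 with Elovl5 (63.1%) and Elovl3 with Elovl6 (58.1%) were the most alike of 10 pairs, and the other pairs were 47.9% to 52.9% identical.

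In starved liver 5 of the 10 genes fell and 0 rose (edgeR's quasi-likelihood test, called at a Benjamini-Hochberg adjusted p under 0.05 among all genes tested), where 20.0% of all tested genes were called lower, 18.6% higher and 38.6% in either direction. The count was also 5 lower and 0 higher without starved libraries 2 and 4, where 20.7% of tested genes were called lower. Scaled by library totals alone, the median log2 fold change of all genes moved by −0.16, 29.9% of all calls were higher in place of 48.2%, and the 10 genes gave 6 lower and 0 higher. Scd1 fell 22.0-fold, Elovl6 7.26-fold, Fads1 2.14-fold, Elovl1 2.02-fold and Fads2 1.48-fold. Elovl2 and Elovl5, the elongases of polyunsaturated chains, were abundant and did not pass the test, and Scd2, Fads3 and Elovl3 were scarce in both and not called. The median log2 fold change of the 10 genes was −0.58, beside 0.00 for all tested genes. For the same 5 genes the fed and starved libraries did not overlap, as was the case for 16.7% of tested genes with lower starved values and 29.9% in either direction. The plot of levels by gene shows each library.

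**Figure D1:**
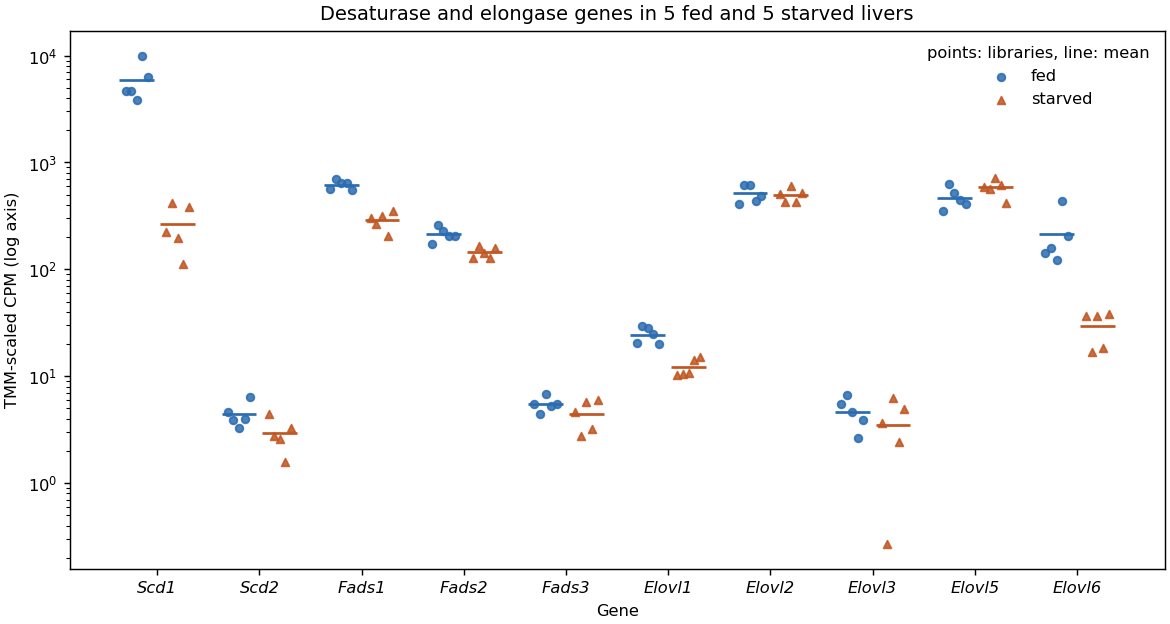
Level of each gene (TMM-scaled CPM, log axis) in 5 fed livers (circles) and 5 starved livers (triangles), with the group mean as a line. Scd1, Elovl6, Fads1, Elovl1 and Fads2 show no overlap between groups, and the lowest point is Elovl3 in starved library 2 at 0.267 CPM.

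Levels are given as CPM, read counts relative to library size in the usual unit of 1e6 reads, after TMM scaling (a trimmed-mean factor for each library), in the order of libraries 1 to 5. Scd1, the main stearoyl-CoA desaturase of liver, stood at 4624, 4668, 3844, 9987 and 6259 CPM in fed livers and at 225, 419.9, 196, 112 and 385 CPM in starved livers. Every starved value was far below the lowest fed value, and fed library 4 was the highest of all. The mean fell from 5876 ± 2459.7 to 268 ± 130.4 CPM (SD, n = 5 each), a log2 fold change of −4.46 ± 0.41 (SE; 95% interval −5.36 to −3.56; adjusted p = 2.98e-05). It was −4.44 without starved libraries 2 and 4, which stood apart from the other starved libraries across the transcriptome.

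Scd2, the stearoyl-CoA desaturase known chiefly from brain and from early life, was scarce. It gave 4.60, 3.88, 3.27, 3.96 and 6.40 CPM in fed and 4.47, 2.78, 2.56, 1.59 and 3.30 CPM in starved livers, which is 44 to 159 reads per library. The groups overlapped, and the log2 fold change of −0.59 ± 0.26 (95% interval −1.16 to −0.01) did not pass after adjustment (adjusted p = 0.0972). Scd2 was called with library totals alone as scaling (−0.75, adjusted p = 0.0452) and without starved library 1 (−0.80, adjusted p = 0.0291), but not without starved libraries 2 and 4 (−0.32, adjusted p = 0.301). In fed library 4, where Scd1 was 2.06 times the mean of the other fed libraries, Scd2 was 0.872 times that mean. Scd3 and Scd4, further copies in the same gene family, were too scarce to be tested. Scd3 had 7, 9, 9, 15 and 11 reads in fed and 1, 2, 0, 4 and 1 in starved livers. Scd4 had 3, 4, 1, 14 and 5 reads in fed and 2, 0, 0, 0 and 0 in starved livers. Fed library 4 was highest for both, as for Scd1.

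The 3 FADS genes differed in level and in change. Fads1, which carries out the last desaturation before arachidonic and eicosapentaenoic acid, measured 559.8, 693, 638, 638 and 552 CPM in fed and 305, 267, 313, 204 and 354 CPM in starved livers. Its lowest fed value lay well above its highest starved value, and it had the smallest relative spread of the 10 genes in fed liver (coefficient of variation 9.68%). It fell by 1.09 ± 0.15 on the log2 scale (adjusted p = 0.000304). Fads2, which starts the pathway from linoleic and α-linolenic acid, measured 174, 258, 230.0, 205 and 206 CPM in fed and 128, 166, 143, 127 and 160.0 CPM in starved livers. The groups lay close together without overlapping, and Fads2 fell by 0.57 ± 0.13 (adjusted p = 0.00527), also without starved libraries 2 and 4 (−0.56). Fads3, a relative that acts on few known substrates, had 5.49 ± 0.857 CPM in fed and 4.44 ± 1.44 CPM in starved livers, with no call (−0.31 ± 0.22, adjusted p = 0.284, and 0.00 with adjusted p = 0.986 without starved libraries 2 and 4).

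Elovl6, the elongase that turns palmitate into stearate, the main substrate of Scd1, measured 142, 159, 122, 438 and 203 CPM in fed livers. In starved livers it measured 36.7, 17, 36.4, 18.4 and 38.0 CPM. Fed library 4 stood clear of the rest, and starved libraries 2 and 4 were the lowest of the starved libraries. Elovl6 fell from 213 ± 129 to 29.3 ± 10.6 CPM (−2.86 ± 0.39, 95% interval −3.70 to −2.02, adjusted p = 3.0e-04), by 2.42 without fed library 4 and by 2.50 without starved libraries 2 and 4.

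Elovl1, which lengthens saturated and monounsaturated chains to those of sphingolipids, measured 20.5, 29.3, 28.1, 24.8 and 19.9 CPM in fed and 10.2, 10.4, 10.8, 14.2 and 15.1 CPM in starved livers. All starved values were below all fed values, and the fall was −1.01 ± 0.16 (adjusted p = 0.000673) and −1.02 without starved libraries 2 and 4. Its exons overlap those of Cdc20, a cell cycle gene on the opposite strand, and the strand setting of the counting is not given. Cdc20 itself was at 0.994 ± 0.544 and 0.123 ± 0.107 CPM, and the part of Cdc20 reads in the Elovl1 values was not tested. Elovl3, an elongase of saturated and monounsaturated chains known for a daily rhythm in male liver, measured 5.48, 6.63, 4.67, 2.65 and 3.90 CPM in fed and 3.66, 0.267, 6.25, 2.42 and 4.93 CPM in starved livers. The low value of starved library 2 rested on 5 reads, against 67 to 127 reads in the other starved libraries. Elovl3 was not called (−0.42 ± 0.50, adjusted p = 0.532), and its value was 0.09 without starved libraries 2 and 4, so that its sign rests on this pair. Its exons overlap those of Pitx3 on the opposite strand, a gene not among those tested.

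Elovl5 and Elovl2 act in turn on polyunsaturated chains, Elovl5 on the shorter and Elovl2 on the longer ones towards docosahexaenoic acid. Elovl5 measured 354, 628, 515, 442 and 411 CPM in fed and 594, 566, 722, 616 and 419 CPM in starved livers. The groups overlapped, with starved library 3 alone above the fed range, and the log2 fold change was 0.31 ± 0.18 (95% interval −0.08 to 0.70, adjusted p = 0.182). Elovl2 measured 411, 618, 613, 437 and 484 CPM in fed and 505, 424, 605, 426 and 520.0 CPM in starved livers. Its values intermingled, with a log2 fold change of −0.05 ± 0.15 (95% interval −0.38 to 0.29, adjusted p = 0.824). These intervals exclude a fall of Elovl5 or Elovl2 as large as that of Fads1, and the sign for Elovl2 turned to 0.10 without starved libraries 2 and 4.

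**Figure D2:**
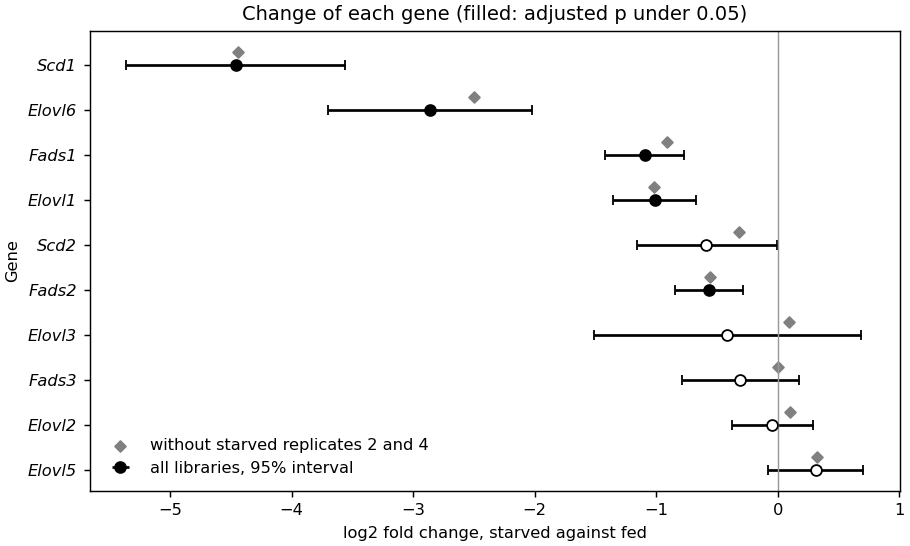
Log2 fold change of each gene between starved and fed livers (horizontal axis; circles with 95% intervals, filled where the adjusted p was under 0.05) and the value without starved libraries 2 and 4 (grey diamonds). The values run from −4.46 for Scd1 to 0.31 for Elovl5, and leaving out these libraries moved Scd1 by little and Elovl6 from −2.86 to −2.50.

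Spread between mice differed among the 10 genes. In fed livers the coefficient of variation was highest for Elovl6 (60.7%) and Scd1 (41.9%), and in starved livers for Elovl3 (65.7%) and Scd1 (48.8%), whereas Fads2 stayed at 14.6% and 12.6%, Elovl1 at 17.5% and 18.9% and Elovl2 at 19.1% and 15.1%. The high fed values of Elovl6 and Scd1 rest on fed library 4: without it they were 22.0% and 20.9%, beside 29.9% for Scd2 and 25.4% for Elovl5.

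Levels of different genes were compared per length, as CPM per kb of annotated exons. In fed liver the order was Scd1 (1201 ± 503 CPM per kb), Elovl5 (133 ± 30.1), Elovl2 (129 ± 24.6), Fads1 (128 ± 12.4), Fads2 (65.1 ± 9.53), Elovl6 (33.1 ± 20.1) and Elovl1 (9.00 ± 1.58), followed by Elovl3, Fads3 and Scd2 at 0.809 to 2.36 CPM per kb. Ranges over the libraries overlapped between neighbours in this order for Elovl5 with Elovl2, Elovl2 with Fads1, Fads2 with Elovl6, Elovl3 with Fads3 and Fads3 with Scd2, and did not for the other 4 neighbouring pairs. In starved liver Elovl5 (166 ± 31.0) and Elovl2 (125 ± 18.9) came first. Fads1 (60.0 ± 11.7), Scd1 (54.7 ± 26.7) and Fads2 (43.9 ± 5.52) followed, with the ranges of Fads1 and Scd1 and those of Scd1 and Fads2 overlapping. Elovl6 (4.55 ± 1.65) and Elovl1 (4.45 ± 0.841) had overlapping ranges, and Elovl3, Fads3 and Scd2 again came last (0.538 to 1.77).

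The make-up of the summed level of the 10 genes thereby differed between the groups. Scd1 held 68.9% ± 8.52 of the summed CPM per kb in fed livers (59.4% to 80.0%) and 11.7% ± 5.59 in starved livers (5.76% to 18.4%). Elovl5 held 8.32% ± 2.85 and 36.0% ± 6.92, and Elovl2 8.15% ± 2.84 and 27.0% ± 2.45. The summed level of all 10 genes was 1704 ± 503 CPM per kb in fed and 462 ± 44.2 in starved livers, and that of the 9 genes other than Scd1 was 503 ± 72.6 and 407 ± 43.5, with overlapping ranges of 408 to 597 and 374 to 481.

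**Figure D3:**
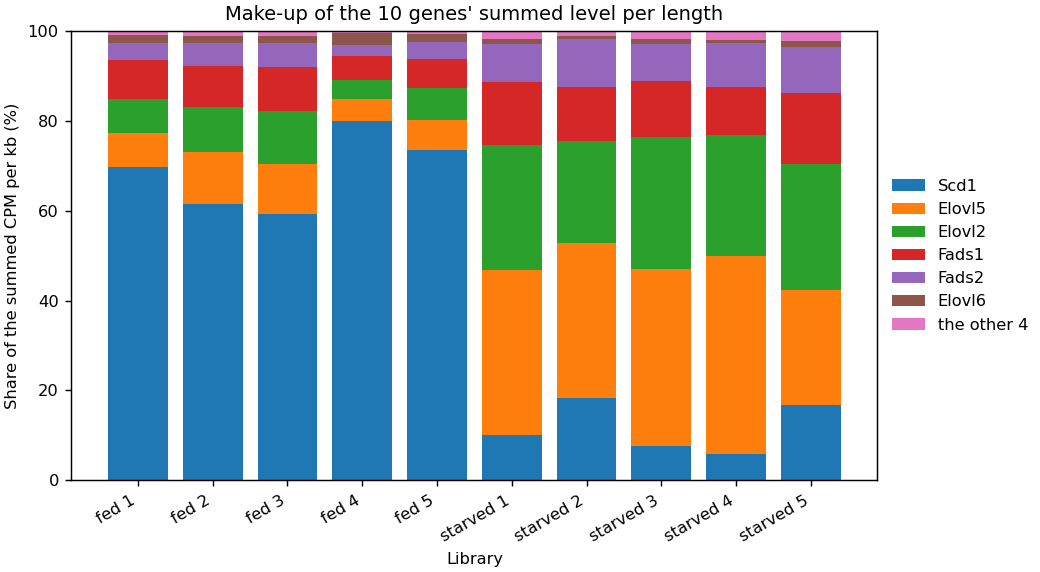
Share of each gene in the summed CPM per kb of the 10 genes (vertical axis, percent) in each of the 10 libraries. Scd1 takes 59.4% to 80.0% of each fed bar and 5.76% to 18.4% of each starved bar, where Elovl5 and Elovl2 take the largest shares.

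Whether genes of a family or of adjacent steps changed by different factors was tested with the log2 ratio of their levels (CPM + 0.5) within each library, for 7 pairs, by an exact two-sided permutation test whose smallest possible p is 0.00794. The ratio of Scd1 to Scd2 was 10.17 ± 0.55 on the log2 scale in fed and 6.18 ± 0.63 in starved livers, a difference of −3.98, or 15.8-fold (exact permutation p = 0.00794, adjusted p = 0.0185 over the 7 pairs). These close copies thus differed in their change, in counts that may lack reads from the shared run printed above. The ratio of Elovl6 to Elovl5 differed by −3.08, or 8.44-fold (exact permutation p = 0.00794, adjusted p = 0.0185), with no overlap of the groups. The ratio of Fads1 to Fads2 differed by −0.55, from 1.53 ± 0.12 to 0.98 ± 0.27 (exact permutation p = 0.00794, adjusted p = 0.0185), so Fads1 fell by the larger factor. Scd1 also fell by a larger factor than Elovl6, the step before it (−1.76, exact permutation p = 0.0159, adjusted p = 0.0278), although starved library 2, at 4.59, lay within the fed range of 4.51 to 5.02.

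The other 3 ratios did not pass. Elovl2 over Elovl5 went from 0.13 ± 0.14 to −0.23 ± 0.32 (exact permutation p = 0.0635, adjusted p = 0.0889) and passed without starved library 5 (−0.49, adjusted p = 0.0139). Fads2 over Fads3 (−0.25, exact permutation p = 0.349, adjusted p = 0.407) and Elovl3 over Elovl1 (0.35, exact permutation p = 0.540, adjusted p = 0.540) passed without starved libraries 2 and 4, at −0.56 (adjusted p = 0.0416) and 1.10 (adjusted p = 0.0251).

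**Figure D4:**
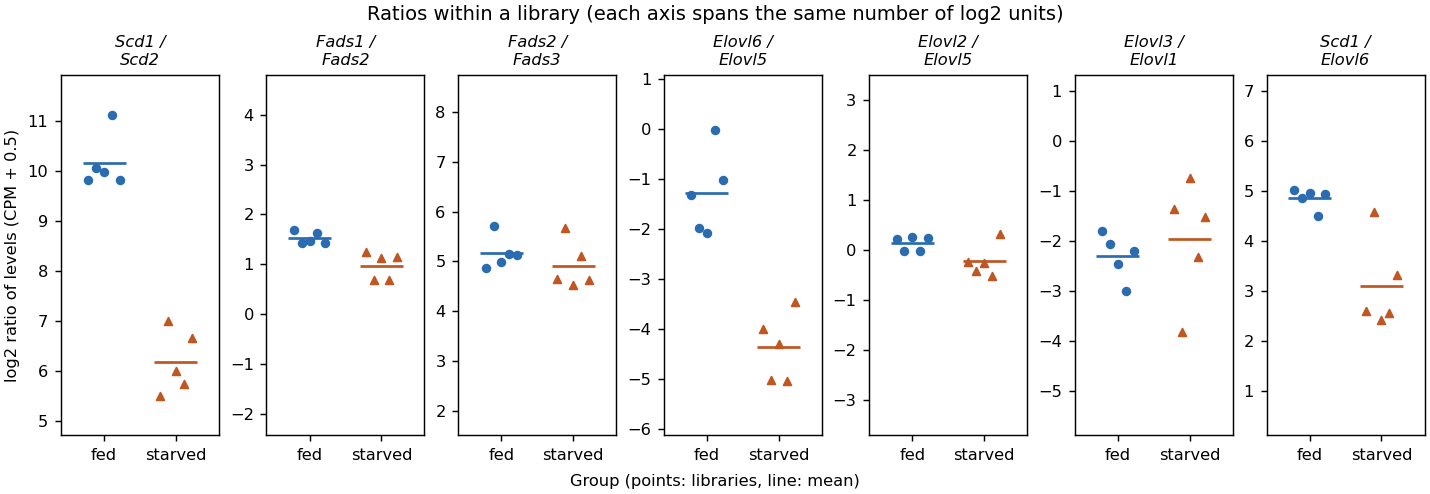
Log2 ratio of 2 genes' levels within each library (vertical axis; circles fed, triangles starved, lines the group means) for the 7 pairs, each panel spanning the same number of log2 units. The fed and starved points are separate for Scd1 over Scd2, Fads1 over Fads2 and Elovl6 over Elovl5 and overlap in the other 4 panels.

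Promoter sequences in RefSeq's table (build GRCm38.p6) matched 6 of the 10 genes: Elovl1, Elovl2, Elovl5, Elovl6, Fads2 and Fads3, in 8 entries. Printed are the bases before the annotated start of Elovl6 and Elovl1, which fell, and of Elovl5, which was not called, each 5′ to 3′ on the plus strand, with capitals for the CCAAT box, the GC box and the E-box defined after them, on either strand.
Elovl6, chr3:129532136-129532354: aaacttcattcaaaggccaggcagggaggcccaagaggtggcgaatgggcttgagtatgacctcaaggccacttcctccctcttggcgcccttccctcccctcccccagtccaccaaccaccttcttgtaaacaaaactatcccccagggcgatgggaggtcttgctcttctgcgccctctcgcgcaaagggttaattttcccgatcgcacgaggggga
Elovl1, chr4:118427843-118428092: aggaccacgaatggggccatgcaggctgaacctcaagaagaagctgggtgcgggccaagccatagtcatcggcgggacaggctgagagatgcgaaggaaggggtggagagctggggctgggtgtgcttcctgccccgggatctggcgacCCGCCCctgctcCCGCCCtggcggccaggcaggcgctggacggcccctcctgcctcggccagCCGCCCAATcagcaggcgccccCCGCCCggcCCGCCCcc
Elovl5, chr9:77917115-77917363: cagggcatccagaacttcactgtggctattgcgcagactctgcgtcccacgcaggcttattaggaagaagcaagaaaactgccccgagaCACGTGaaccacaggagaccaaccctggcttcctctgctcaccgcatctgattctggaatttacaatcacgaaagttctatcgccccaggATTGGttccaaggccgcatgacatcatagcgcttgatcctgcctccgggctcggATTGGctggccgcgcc
In the 250 bases before the RefSeq start, TCACNCCAC, a core form of the sterol regulatory element to which SREBP factors bind, was in 0 of the 8 entries and in 1.05% of all 32851 promoters. CCAAT, the letters bound by NF-Y, was in 3 of the 8 entries (Elovl1, Elovl5 and Fads3; 33.8% of all promoters). GGGCGG, a GC box, was in 5 (of Elovl1, Elovl2, Fads2 and Fads3; 32.7%), and CACGTG, an E-box, in 1 (Elovl5; 6.02%). In Elovl1 a CCAAT overlaps a GC box. Each motif was searched on both strands. CCAAT and the GC box occurred in genes that fell and in genes that were not called, and the E-box only in Elovl5, which was not called. Scd1 and Fads1, which fell, had no promoter entry.

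Genes of connected steps came from 8 lists, and a member is named from each. Their counts stand beside 20.0% of all tested genes called lower and 18.6% called higher. A count near these shares is not read as a response of its list. Of 8 genes for the synthesis of palmitate, the substrate of Elovl6, 7 fell and 0 rose (median log2 fold change −1.94). Thrsp, a lipogenic nuclear protein, fell by 3.15 ± 0.55 on the log2 scale. Fasn, the fatty acid synthase, fell from 559.5 ± 134 to 73.0 ± 27.6 CPM (−2.94 ± 0.25), and Acly, which makes cytosolic acetyl-CoA, from 369 ± 98.3 to 79.2 ± 11.8 CPM (−2.22 ± 0.18). Acacb had 122 CPM in fed and 87.9 CPM in starved livers, with no call (adjusted p = 0.145).

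The elongation cycle has 3 more steps after the ELOVL enzymes, the reductions and the dehydration, and these did not move in 1 direction. Of 6 genes, 3 fell and 2 rose (median −0.33). Hsd17b12, the ketoacyl-CoA reductase, fell by 0.73 ± 0.17, and by 0.48 without starved libraries 2 and 4. Tecr, the enoyl-CoA reductase, fell from 121 ± 16.0 to 76.9 ± 13.6 CPM (−0.65 ± 0.14), and Ptplad2, a dehydratase relative now named Hacd4, from a low 2.09 ± 0.326 CPM (−1.51 ± 0.29). The dehydratases Ptplad1 (0.58) and Ptplb (0.48), now Hacd3 and Hacd2, were the 2 that rose. Desaturases draw electrons through cytochrome b5, and of 5 tested genes of this supply 2 fell and 0 rose (median −0.47). Cyb5b, the cytochrome b5 of the outer mitochondrial membrane, fell from 550.4 ± 60.6 to 143 ± 48.5 CPM (−1.95 ± 0.23) and Cyb5r3, the reductase, from 401 ± 39.5 to 113 ± 35.3 CPM (−1.82 ± 0.21). Cyb5, the microsomal cytochrome b5 that serves the desaturases, stood at 1339 and 1275 CPM (−0.07, adjusted p = 0.787).

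Of the remaining desaturases and elongases, Degs1, the ceramide desaturase, rose (0.72 ± 0.17, from 63.1 ± 3.72 to 104 ± 32.5 CPM; 0.43 without starved libraries 2 and 4), and of 7 genes 3 could be tested. Among 7 tested long-chain acyl-CoA synthetases, 2 fell and 2 rose (median 0.09). Acsl3 fell by 1.92 ± 0.17, while Slc27a2, a very long-chain synthetase, rose from 981 ± 180.3 to 1889 ± 251 CPM (0.94 ± 0.15). Acsl4, which prefers arachidonic acid, rose by 0.91 ± 0.28, and by 0.30 without starved libraries 2 and 4. It was not called without fed library 1 (adjusted p = 0.0506), fed library 2 (0.0510) or starved library 4 (0.0528).

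Among 11 users of the acyl-CoA products, 4 fell and 2 rose (median −0.26; 5 and 3 without starved libraries 2 and 4). Pnpla3, a lipid droplet hydrolase, fell by 3.11 ± 0.42 from a low level of 5.01 ± 2.79 CPM. The last enzymes of triglyceride synthesis moved oppositely, Dgat2 falling from 762 ± 85.4 to 324 ± 74.4 CPM (−1.24 ± 0.17) and Dgat1 rising from 17.2 ± 1.41 to 39.2 ± 12.1 CPM (1.18 ± 0.19). Of 8 genes of the peroxisomal shortening that completes docosahexaenoic acid, 0 fell and 2 rose (median −0.18), Acaa1a by 0.74 ± 0.10 and Hsd17b4 by 0.55 ± 0.13.

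Of 15 regulators, 5 fell and 1 rose (median −0.16; 7 and 2 without starved libraries 2 and 4). Srebf1 fell from 323 ± 20.0 to 30.4 ± 20.2 CPM (−3.41 ± 0.34). Insig1 and Insig2, which hold SREBP precursors in the endoplasmic reticulum, moved oppositely. Insig1, itself an SREBP target, fell from 838 ± 164 to 156 ± 88.2 CPM (−2.43 ± 0.33), and Insig2 rose from 110.3 ± 35.3 to 1278 ± 684 CPM (3.54 ± 0.35). Mlxipl, the carbohydrate-responsive factor ChREBP, fell from 58.6 ± 10.2 to 29.3 ± 5.29 CPM (−1.0 ± 0.16), and Nr1h3, the oxysterol receptor LXRα that activates Srebf1, stood at 153 ± 10.4 and 137 ± 14.3 CPM (−0.16 ± 0.10, adjusted p = 0.238). Exons of Srebf1 overlap Rai1 and those of Acaa1a overlap Myd88 on the opposite strand, and exons of Hacd4 overlap Focad.

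**Figure D5:**
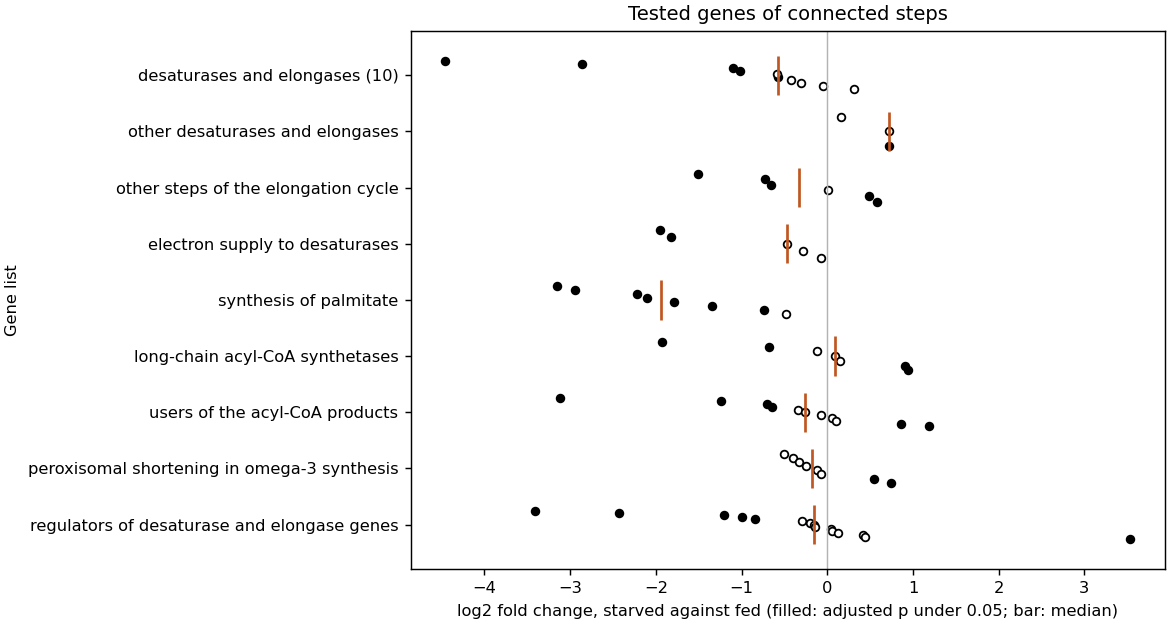
Log2 fold change between starved and fed livers (horizontal axis) of the tested genes of the 10 desaturases and elongases and of the 8 connected lists (rows), filled where the adjusted p was under 0.05, with each list's median as a bar. The medians run from −1.94 for synthesis of palmitate to 0.72 for the 3 tested genes of the other desaturases and elongases.

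Tested genes next to the 10 were few. Within 25 kb of Fads1, Tmem258 fell from 35.5 ± 1.68 to 24.7 ± 5.22 CPM (−0.53 ± 0.14, and −0.31 without starved libraries 2 and 4) and Fen1, a DNA repair nuclease, from 3.8 ± 0.728 to 2.36 ± 0.541 CPM (−0.69 ± 0.20). Beside Elovl1, Med8, a Mediator subunit, rose by 0.30 ± 0.10 (not called with library totals alone, 0.14, or without a low-count filter, adjusted p = 0.0518, or without fed library 4, fed library 5 or starved library 1, adjusted p = 0.0784, 0.0827 and 0.0635). Gbf1 beside Elovl3 was not called (−0.08, adjusted p = 0.735).

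Markers of hepatocytes were abundant in all libraries, their 8 genes summing to 90738 to 129971 CPM in fed and 113745 to 182807 CPM in starved livers. Most of this sum was Alb, at 82740 and 94215 CPM and not called. The list moved in both directions: 2 fell (Ttr −0.88 and Serpina1c −0.70) and 4 rose (Tat 2.38, Cps1 1.63, Apoa1 0.99 and Hnf4a 0.51). Markers of other cells were measured because Scd2, Elovl1 and Fads3 are widely expressed. In whole liver, fewer cells of a type and less RNA per cell cannot be told apart. The counts of all marker lists stand beside 20.0% of all tested genes called lower and 18.6% called higher. Of 8 Kupffer cell and macrophage markers, 7 fell and 0 rose, with sums of 318 to 510 CPM in fed and 152 to 261 CPM in starved livers. Of 8 endothelial markers, 3 fell and 1 rose (269 to 309 and 220 to 288 CPM). Of 8 stellate cell markers 3 fell (Col3a1 −2.32, Col1a1 −1.04 and Ngfr −0.81) and 1 rose (Dcn 0.49). Their sums were 424 to 488 and 427 to 624 CPM, most of it Dcn at 263 and 370 CPM. Of 5 tested cholangiocyte markers 1 fell, Spp1 (−0.96). The list summed to 46.5 to 57.4 and 15 to 40.8 CPM, most of it Spp1 at 47.2 and 24.2 CPM. Both tested neutrophil markers rose, S100a8 and S100a9 (1.51 to 3.41 and 2.43 to 17.9 CPM for the list), while Camp, Ngp, Mpo and Elane had 4 to 12 reads in all. Of the erythroid list Alas2 fell (26.8 to 44.9 and 8.35 to 25.1 CPM), and the globin rows Hba-a1, Hba-a2 and Hbb-b1 were listed at 0. The part of these cells in the values of Scd2, Elovl1 and Fads3 was not tested.

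Adipocytes also express Scd1 strongly. The 7 adipocyte markers summed to 5.23 to 37.0 CPM in fed and 7.77 to 18.1 CPM in starved livers, and Adipoq, Plin1, Lep, Retn and Cidea were too scarce to be tested. Fabp4 had the highest mean of the 7 in both groups and alone had a higher mean in starved livers. Neither tested marker was called, Fabp4 at 0.38 (adjusted p = 0.35) and Cfd at −2.35 (adjusted p = 0.175). Similar sums therefore do not show that the single markers were unchanged. Fed library 4, with the highest Scd1, had the lowest sum of adipocyte markers. Fed library 1, with the highest sum, had 4624 CPM of Scd1, close to the fed median of 4668 CPM. The part of adipocytes in the Scd1 values was not tested.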

How the data were processed

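Total RNA of whole livers was made into strand-marked TruSeq libraries, per the labels. Tools listed by the submitters' processing notes are CASAVA 1.8.2, TopHat2 2.0.0 and Bowtie2 2.0.0, HTSeq, edgeR 3.6.4 and the build mm10, without roles. The annotation, read length and strand setting are not stated there. The deposited values are raw read counts for each gene symbol, 1 file a library. HTSeq's tallies of unassigned reads name no gene and were left out. They hold the reads aligned to more than 1 place (38.6% to 48.4% of all tallied) and those in no gene (16.0% to 24.7%), so reads from stretches that Scd1 and Scd2 share may be missing.

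Genes were filtered with filterByExpr, scaled by TMM and tested with edgeR 4.0.16 (quasi-likelihood, adjusted p under 0.05) in R 4.3.3. The fit was checked on simulated data in which few genes changed, so the check does not cover changes as widespread as those seen here. SEs and 95% intervals follow from its F statistic, and other p-values are exact permutation tests. Alternatives were DESeq2 1.42.0 (size factors and Wald test), limma 3.58.1 (voom), library totals, other filters, a replicate block and leaving out libraries. The genes and lists were chosen with earlier results of these data known. From each list up to 3 called genes are named, those that changed most among genes that reach 1 CPM in a group, beside 6 fixed genes and tested neighbours within 25 kb, of which 1 is not reported here. Acacb, Cyb5, Ptplad1, Ptplb and single marker genes were named after their values were seen. Exon lengths and coordinates are from GENCODE M21, which need not be the annotation used for counting. Nothing in the labels says that 2 libraries share a mouse.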

Additional observations from a re-analysis of the deposited data

Results flagged for a closer look

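Among the 20 groups formed by the 10 genes in fed and in starved livers, 1 held a library whose distance from the nearest other took up more of the group's range than chance usually gives, and chance alone gives about 1 such group in 20. It was Elovl6 in fed library 4, at 438 CPM against 122 to 203 CPM in the other fed livers. Elovl6 fell by 2.42 on the log2 scale without this library and was still called. In the same library Scd1 was 2.06 times, Acly 1.62 times, Fasn 1.55 times and Thrsp 1.47 times the mean of the other fed libraries, while Srebf1 was 1.02 times, Insig1 0.752 times and Insig2 0.544 times that mean, and of the other 8 genes Fads1, Fads2, Fads3, Elovl1 and Elovl5 were 0.926 to 1.05 times, Scd2 0.872 times, Elovl2 0.822 times and Elovl3 0.513 times it, the lowest fed value of Elovl3. Genes other than Elovl6 were looked up in this library after its value was seen.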

How the results depend on the processing

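The count of 5 genes lower and 0 higher was the same or 6 and 0 in every alternative run, the sixth being Scd2. Over all genes, the number called higher went from 2379 to 1490 with library totals alone. Without starved libraries 2 and 4, chosen with earlier results in view, the sign turned for Elovl2 (0.10) and Elovl3 (0.09), and the ratios Fads2 over Fads3 (−0.56) and Elovl3 over Elovl1 (1.10) passed. Leaving out 1 library at a time gave −0.13 to 0.03 for Elovl2, −0.18 to 0.02 for Gbf1, −0.49 to −0.28 for Elovl2 over Elovl5, and, with no call gained, −0.73 to −0.12 for Elovl3, 0.05 to 0.82 for Elovl3 over Elovl1 and −0.44 to −0.11 for Fads2 over Fads3. With 5 CPM added in place of 0.5, Fads2 over Fads3 was −0.39 and Elovl3 over Elovl1 0.56 (adjusted p = 0.0635 by the exact permutation test for both), and no ratio gained or lost its call. The cause was not tested. With a replicate block, edgeR called 2381 genes lower and 2029 higher and the same count of 5 of the 10 genes. Deviations of same-numbered libraries correlated between −0.045 and 0.198, and the labels speak of pairs without tying numbers to them, so the numbers were not taken to pair the mice. In an exact paired sign-flip permutation test, which cannot go below p = 0.0625, the ratios Scd1 over Scd2 (−3.98), Fads1 over Fads2 (−0.55), Elovl6 over Elovl5 (−3.08) and Scd1 over Elovl6 (−1.76) kept their value and could not pass (adjusted p = 0.0875). Scd2, Fads3 and Elovl3 had 5 to 200 reads per library, and the part of depth in their missing calls was not tested.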

Other observations

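In starved libraries 2 and 4, which stood apart from the other starved libraries across all genes, the 10 genes did not sit together on one side. Elovl6 (17 and 18.4 CPM), Fads1 (267 and 204 CPM), Fads3 (2.78 and 3.18 CPM), Elovl2 (424 and 426 CPM) and Elovl3 (0.267 and 2.42 CPM) had their 2 lowest starved values there, whereas Scd1 had its highest (419.9 CPM in library 2) and its lowest (112 CPM in library 4) starved value in this pair.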
